A study of Caenorhabditis elegans with 16 samples.

Results

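The genes described here are the numbered his- genes of Caenorhabditis elegans that the deposited tables list as protein coding, which are 72 of 46904 genes. They were chosen by a rule of name and gene type that used none of their values, though with earlier results of these data known. RNA of whole N2 worms, the wild-type strain, had been sequenced in 16 libraries. There were 7 libraries of atp-2 RNAi worms, kept on HT115 Escherichia coli whose construct gives atp-2 double-stranded RNA, from the gene of the ATP synthase beta subunit. They comprised 2 libraries at 0 hr, 2 at 20 hr and 1 each at 24 hr, 36 hr and 54 hr. The 9 control libraries were of N2 worms on HT115 with the empty vector L4440, 3 at 0 hr, 3 at 20 hr and 1 each at 24 hr, 36 hr and 48 hr. The labels do not give the event from which the hours were counted, the stage of the worms, or whether each replicate was a culture of its own, so the p-values reflect the scatter of these samples, which may be technical. Values are the authors' TPM (transcript abundances scaled to the same total in each library), which keep no read totals, so the depth behind them is unknown.

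Histones are the proteins that package DNA into chromatin. H2A, H2B, H3 and H4 form the core of the nucleosome, and H1 binds the DNA that links nucleosomes. In animals most core histone genes are replication-dependent: they lie in arrays of many near-identical copies, have no introns, are used mainly while DNA is copied, and give mRNAs that end in a stem-loop and not in a poly(A) tail. Replacement variants such as H3.3 come from single genes with introns and are laid down at any time of the cell cycle.

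By the class named in the deposited tables there were 17 H2A genes, 16 H2B genes, 15 H3 genes, 5 genes of the variant H3.3, 16 H4 genes and 1 H1 gene, and 2 genes (his-39 and his-73) had no class named. All 16 H4 genes shared 1 UniProt protein entry (P62784), as did 16 of the 17 H2A genes (P09588) and 14 of the 15 H3 genes (P08898), so their TPM depend on how reads were divided among copies with near-identical sequence. That step is not given in the sources used here. Pairs of genes with 1 UniProt entry were compared where 1 or both were above 0 in at least 8 libraries. In 4 of these pairs, each within 1 array set (his-58 with his-66, his-14 with his-10, his-46 with his-56, and his-50 with his-28), the TPM differed by at most 10% in every such library, so these pairs are no separate evidence. The H2A genes his-30 and his-33, which were above 0 in only 6 libraries, had identical TPM throughout. For this reason the results are ordered by array and also given as sums over arrays and classes. All 72 genes are in the reference annotation (WBcel235), where 64 have a single exon and 8 have introns in at least 1 transcript. The 8 are his-24, his-35, his-37, his-41, his-57, his-71, his-72 and his-74. Whether poly(A) RNA was selected is not given in the sources used here, so nothing is read from a difference in level between intronless and intron-containing genes.

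The 19 places in the genome that hold these genes, split where neighbours lie over 10000 bases apart, were grouped by chromosome and by the H2B protein encoded there. Coordinates are those of the deposited tables, in WBcel235. The chromosome II array has 13 genes at II:13817759-13828697 and encodes the H2B entry P04255. The chromosome V arrays have 23 genes in 4 places (V:8532540-8536716, V:8847393-8854053, V:8889488-8898645 and V:16040029-16043013) and encode the H2B entry Q27894. The chromosome IV arrays have 16 genes in 4 places (IV:7485733-7488956, IV:11323885-11327090, IV:11337733-11341703 and IV:11400311-11407496) and encode the H2B entry Q27876. A further array of 6 genes, his-29 to his-34, lies at IV:8331044-8336340. The genes his-35 (H2A), his-41 (H2B) and his-37 (H4), all with introns, lie together at V:9544611-9547607.

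The target gene checked the labels. The level of atp-2 was 110 and 136 TPM in the 0 hr atp-2 RNAi libraries, against 1814, 2074 and 2097 TPM in the 0 hr controls. The 20 hr value was 197 and 172 TPM in atp-2 RNAi worms, against 1389, 1910 and 1872 TPM in controls. The drop was smaller in the single libraries of the other times, and among these it was larger at the later times. The atp-2 RNAi worms had 1043, 736 and 431 TPM at 24 hr, 36 hr and 54 hr. The controls had 2225, 2578 and 2607 TPM at 24 hr, 36 hr and 48 hr. Markers of the germline moved with the groups. The summed TPM of 16 germline markers was 166 to 168 in atp-2 RNAi worms at 0 hr, against 3603 to 4276 in controls, and 206 to 355 in atp-2 RNAi worms at 20 hr, against 4963 to 6993 in controls. All 16 fell at both times, 1 of them was under 1 TPM on average in atp-2 RNAi worms and none was at 0 throughout a group. Of 14 oocyte markers, 13 fell at 0 hr and 14 at 20 hr, and their sum was 58.7 to 65.9 TPM in atp-2 RNAi worms at 0 hr, against 5411 to 7518 TPM in controls. Of the 14, 9 averaged under 1 TPM in atp-2 RNAi worms at 0 hr and 1 did at 20 hr. Sums over 10 body wall muscle markers were 4846 to 6051 TPM in atp-2 RNAi worms at 0 hr, against 2218 to 4545 TPM in controls, and 4349 to 4565 TPM in atp-2 RNAi worms at 20 hr, against 359 to 644 TPM in controls. Of the tested markers of other somatic tissues, 6 of 8 rose and 1 fell at 0 hr for the intestine, 5 of 7 and 1 for the pharynx, 7 of 8 and 1 for the epidermis, and 9 of 10 and none for neurons. The 20 hr counts were 8 and 0, 6 and 1, 6 and 1, and 8 and 0, in the same order of tissues. Of all tested genes, 43.7% rose and 39.6% fell at 0 hr, and 47.7% rose and 40.7% fell at 20 hr. The controls at 24 hr, 36 hr and 48 hr stood apart from the earlier controls: their germline sums were 138, 204 and 525 TPM. These marker values differed between the groups of each comparison at 0 hr and 20 hr, and their part in the results was not tested. By the test of the difference of the changes used below, 1 of the 16 germline markers was higher and none was lower. In whole worms, fewer cells of a type and less RNA per cell cannot be told apart.

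At 0 hr most histone genes were higher in atp-2 RNAi worms. Of the 62 that reached a mean of 1 TPM over the 5 libraries, 50 rose and 5 fell (limma on log2(TPM + 1), Benjamini-Hochberg adjusted p under 0.05), and 7 did not pass the test. Over all 14094 genes tested, 43.7% rose and 39.6% fell. The median log2 change was 1.71 over the histone genes and 0.13 over all tested genes. At 20 hr the histone genes divided: of 60 tested, 37 rose and 18 fell, against 47.7% and 40.7% of the 12916 genes tested, with medians of 1.43 and 0.31. After quantile normalization the 20 hr split was 30 higher and 24 lower, against 42.9% and 40.5% of all tested genes. The change at 20 hr minus that at 0 hr was higher for 2 (his-71 and his-38) and lower for 29 of 60 histone genes, where 21.1% of 13679 genes were higher and 21.9% lower. The count of 29 was 15 without atp-2 RNAi replicate 2 at 0 hr, 16 without atp-2 RNAi replicate 2 at 20 hr and 18 with the replicate number as a block. Without the filter, 19 of the 72 were lower by this test, against 9.80% of all genes.

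Because 20 of the genes tested at 0 hr, and 25 at 20 hr, passed the filter with a control mean under 1 TPM, the counts and medians depend partly on the filter. A further 3 at 0 hr and 4 at 20 hr passed with an atp-2 RNAi mean under 1 TPM. Among the 39 genes at or above a mean of 1 TPM in both 0 hr groups, 30 rose and 2 fell, against 42.7% and 37% of all genes that met this condition. Among the 31 such genes at 20 hr, 12 rose and 14 fell, against 39.8% and 45.8%. With no filter and all 72 genes tested, 49 rose and 5 fell at 0 hr (31.8% and 24.5% of all genes), and 37 rose and 15 fell at 20 hr (38% and 22.7% of all genes). Over all 72 genes, 60 had both atp-2 RNAi libraries above all 3 controls at 0 hr and 6 had them below, where 38.6% and 29.7% of genes above 0 in a library did. At 20 hr these numbers were 42 and 19, against 44.9% and 25.6%. Across the 16 libraries, 20 of the 72 genes reached 1 TPM in every library and 6 in none.

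**Figure D1:**
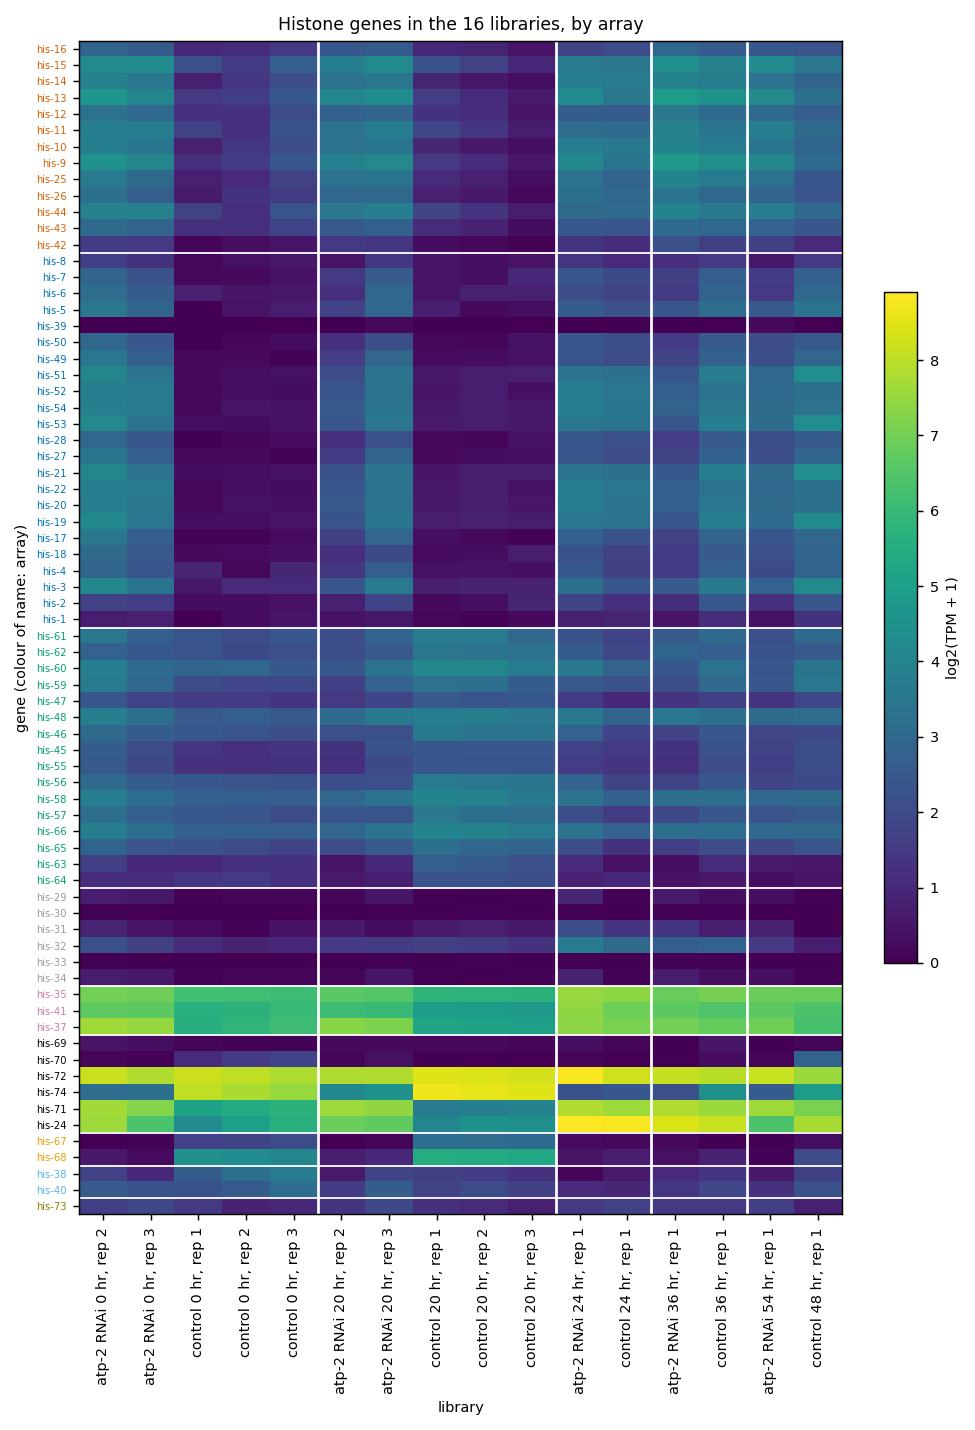
Levels of the 72 histone genes, as log2(TPM + 1) by colour, in the 16 libraries (columns; vertical lines part the times). Names are coloured by array, from the chromosome II array at the top to his-73 at the bottom. The chromosome II and V arrays are dark in the controls at 0 hr and 20 hr and brighter in the atp-2 RNAi libraries and in the later controls, and his-74 and his-68 show the reverse.

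The chromosome II array holds 3 H2A, 3 H2B, 4 H3 and 3 H4 genes, and all of its tested genes were higher in atp-2 RNAi worms at both times. Its summed level was 163 and 130 TPM in the 0 hr atp-2 RNAi libraries, against 17.7, 18.8 and 40.9 TPM in the 0 hr controls. At 20 hr the sum was 114 and 136 TPM in atp-2 RNAi worms, against 20.4, 13.4 and 5.29 TPM in controls. The ratios of the means were 5.68 at 0 hr and 9.59 at 20 hr, and the groups did not overlap at either time. In the limma fit, 12 of 12 tested genes rose at 0 hr (median log2 change 2.14, range 1.48 to 2.52) and 12 of 12 at 20 hr (range 1.73 to 3.05), and without the filter 13 of 13 rose at each time. At 20 hr, 6 of the 12 had a control mean under 1 TPM, so their rise is partly fixed by the filter. The counts with the filter were also 12 of 12 after scaling to a common median, after quantile normalization and without either atp-2 RNAi library. None of the 12 passed the test of the difference between both times. In none of the 13 genes did the groups overlap at either time. Of all genes above 0 in a library, 38.6% had both atp-2 RNAi libraries above every control at 0 hr and 44.9% at 20 hr. The remaining gene of the array, the H3 gene his-42, did not reach the filter. It had 1.89 and 1.77 TPM in atp-2 RNAi worms at 0 hr, against 0.0932, 0.248 and 0.429 TPM in controls.

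Of this array, the H3 gene his-13 (II:13820210-13820620, plus strand) had the highest mean level among H3 genes. Its level was 24.3 and 16.1 TPM in atp-2 RNAi worms at 0 hr, against 1.75, 2.12 and 4.52 TPM in controls (log2 change 2.52, SE 0.33, adjusted p = 2.05e-04). At 20 hr it was 15.9 and 18.9 TPM in atp-2 RNAi worms, against 2.06, 1.26 and 0.557 TPM in controls (log2 change 3.05, SE 0.29, adjusted p = 2.79e-05). Every atp-2 RNAi library was thus above every control at the same time. The H3 gene his-9 (II:13823648-13824058, plus strand) had log2 changes of 2.52 (SE 0.35) at 0 hr and 2.99 (SE 0.27) at 20 hr. Another H3 gene, his-25, averaged 9.42 ± 2.82 TPM in atp-2 RNAi worms at 0 hr (SD, n = 2) and 1.40 ± 0.884 TPM in controls (SD, n = 3). The H2B gene his-15 (II:13818371-13818739, plus strand) had 18.3 and 18.5 TPM in atp-2 RNAi worms at 0 hr, against 3.47, 1.96 and 5.48 TPM in controls. At 20 hr his-15 had 13.3 and 18.0 TPM in atp-2 RNAi worms, against 3.73, 2.35 and 0.985 TPM in controls. Its log2 changes were 2.14 (SE 0.31) at 0 hr and 2.39 (SE 0.36) at 20 hr, again with no overlap. The H4 gene his-14, whose TPM follow those of its copy his-10, had log2 changes of 2.27 (SE 0.37) and 2.82 (SE 0.22).

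The chromosome V arrays hold 6 H2A, 6 H2B, 5 H3 and 5 H4 genes and his-39, and they held the 3 largest rises of the tested his- genes at 0 hr. Their summed level was 222 and 147 TPM in atp-2 RNAi worms at 0 hr, against 4.85, 6.13 and 8.27 TPM in controls, a ratio of means of 28.8. In the 20 hr libraries it was 56.2 and 146 TPM in atp-2 RNAi worms, against 8.44, 9.28 and 10.5 TPM in controls, a ratio of 10.7. The atp-2 RNAi libraries were above the controls at both times, but the 2 libraries at 20 hr were far apart. Over all 23 genes, both atp-2 RNAi libraries were above every control in 22 at 0 hr and in 20 at 20 hr, and in none were they below. With no filter, 21 of the 23 rose at 0 hr and 19 at 20 hr. With the filter, 20 genes were tested at 0 hr and 19 at 20 hr, with log2 changes of 1.34 to 3.46 and of 1.17 to 2.33. Every one of them had a control mean under 1 TPM and so reached the filter only through its level in atp-2 RNAi worms. Their calls, which were a rise in each case, are therefore a description and no separate support. After quantile normalization 13 of the 19 rose at 20 hr, against 42.9% of all tested genes.

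The H2B gene his-22 (V:8892559-8892930, plus strand) had the largest rise of the tested his- genes at 0 hr in log2(TPM + 1). It had 12.6 and 12.0 TPM in atp-2 RNAi worms, against 0.130, 0.293 and 0.213 TPM in controls (log2 change 3.46, SE 0.18, adjusted p = 2.90e-06). At 20 hr it had 4.27 and 8.93 TPM in atp-2 RNAi worms, against 0.491, 0.601 and 0.346 TPM in controls (log2 change 2.29, SE 0.28, adjusted p = 1.05e-04). The controls were thus below 1 TPM at both times. The H2A genes his-19 (V:8895765-8896148, plus strand) and his-53 (V:8853670-8854053, plus strand) gave nearly the same picture. For his-19 the levels at 0 hr were 17.0 and 10.3 TPM in atp-2 RNAi worms, against 0.266, 0.270 and 0.389 TPM in controls, a log2 change of 3.45 (SE 0.24). For his-53 they were 17.1 and 9.57 TPM in atp-2 RNAi worms, against 0.271, 0.229 and 0.339 TPM in controls, a log2 change of 3.44 (SE 0.26). At 20 hr the log2 changes were 2.17 (SE 0.32) for his-19 and 2.28 (SE 0.32) for his-53. By the test of the difference, 21.9% of all tested genes were lower. Of the 19 genes, 10 had a smaller rise at 20 hr than at 0 hr by this test. Among the 10 were his-22 (difference -1.17, adjusted p = 0.0219) and his-19 (difference -1.28, adjusted p = 0.0368), while his-53 did not pass (adjusted p = 0.0566). This count rests on single libraries: it was 0 without atp-2 RNAi replicate 2 at 0 hr and 0 without atp-2 RNAi replicate 2 at 20 hr, 18 without atp-2 RNAi replicate 3 at 20 hr, 1 to 4 without any of the 6 controls, 1 with the replicate number as a block, and 1 of 23 with no filter.

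The chromosome IV arrays hold 4 genes of each core class, and their change turned round between the times. Their summed level was 127 and 79.4 TPM in atp-2 RNAi worms at 0 hr, against 57.8, 54.3 and 50.9 TPM in controls. The 20 hr value was 53.9 and 82.7 TPM in atp-2 RNAi worms, against 155, 144 and 120 TPM in controls. So the atp-2 RNAi libraries were all above the controls at 0 hr and all below them at 20 hr, with ratios of means of 1.90 and 0.489. Of the 16 genes, all tested, 11 rose and none fell at 0 hr (median log2 change 0.68), against 43.7% and 39.6% of all tested genes. At 20 hr none rose and 14 fell (median -0.88), against 47.7% and 40.7% of all tested genes. At 20 hr his-63 and his-64, both called lower, had an atp-2 RNAi mean under 1 TPM, so their fall is partly fixed by the filter. The change at 20 hr was lower than that at 0 hr in 16 of 16 genes (median difference -1.64, range -2.20 to -1.28), against 21.9% of all tested genes. That count stayed between 14 and 16 under each scaling, without any library and with the replicate block. The rise at 0 hr held less well, with 3 of 16 genes after quantile normalization, 7 after scaling to a common median, 3 without atp-2 RNAi replicate 2, 13 without replicate 3, and 7 without control replicate 2 or control replicate 3. The fall at 20 hr was called for 16 genes under either scaling, for 7 without atp-2 RNAi replicate 2, for 9 without control replicate 1 and for 10 without control replicate 2.

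The H3 gene his-59 (IV:7488216-7488956, plus strand) had the largest difference of the changes in log2(TPM + 1). It had 12.0 and 6.91 TPM in atp-2 RNAi worms at 0 hr, against 3.28, 2.72 and 2.77 TPM in controls (log2 change 1.37, SE 0.25, adjusted p = 0.00115). At 20 hr it had 2.22 and 6.02 TPM in atp-2 RNAi worms, against 9.22, 8.52 and 5.16 TPM in controls, where the groups overlapped (log2 change -0.83, SE 0.37, adjusted p = 0.0643). The 20 hr change passed the test after either scaling (-0.94 and -1.76) and without control replicate 3 (-1.05) or atp-2 RNAi replicate 3 (-1.39). The difference of its changes was -2.20 (SE 0.49, adjusted p = 0.00697). Beside it, the H4 gene his-60 (IV:7487560-7488025, minus strand) had 13.2 and 7.72 TPM in atp-2 RNAi worms at 0 hr, against 6.40, 6.68 and 4.41 TPM in controls. At 20 hr his-60 had 4.33 and 8.86 TPM in atp-2 RNAi worms, against 16.6, 16 and 12.0 TPM in controls. Its log2 changes were 0.72 (SE 0.27) at 0 hr and -1.11 (SE 0.29) at 20 hr, and both passed the test. The call for his-60 at 0 hr was lost without atp-2 RNAi replicate 2 (log2 change 0.37) or control replicate 3 (0.56), under both scalings (0.57 and 0.33) and without the filter, and that at 20 hr without atp-2 RNAi replicate 2 (-0.67). The copies his-56 and his-46, both H4 genes, fell at 20 hr (log2 change -1.40, SE 0.17, and -1.31, SE 0.17). For his-56 the 20 hr levels were 3.35 and 3.47 TPM in atp-2 RNAi worms, against 11.9, 10.3 and 9.93 TPM in controls. At 0 hr neither passed the test (log2 change 0.50, SE 0.22, and 0.53, SE 0.22), though both did without atp-2 RNAi replicate 3 (0.75 and 0.78), with 7.46 and 4.96 TPM of his-56 in atp-2 RNAi worms, against 4.53, 3.98 and 3.61 TPM in controls. The H2B gene his-48, at IV:11324719-11325222 on the plus strand, rose at 0 hr (log2 change 0.95, SE 0.22) and not at 20 hr (-0.33, SE 0.20), and its difference was -1.28 (adjusted p = 0.00860). Its rise at 0 hr missed the threshold without atp-2 RNAi replicate 2 (log2 change 0.66) and after quantile normalization (0.53), and its 20 hr change was called lower after either scaling (-0.45 and -0.96) and without atp-2 RNAi replicate 3 (-0.57).

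**Figure D2:**
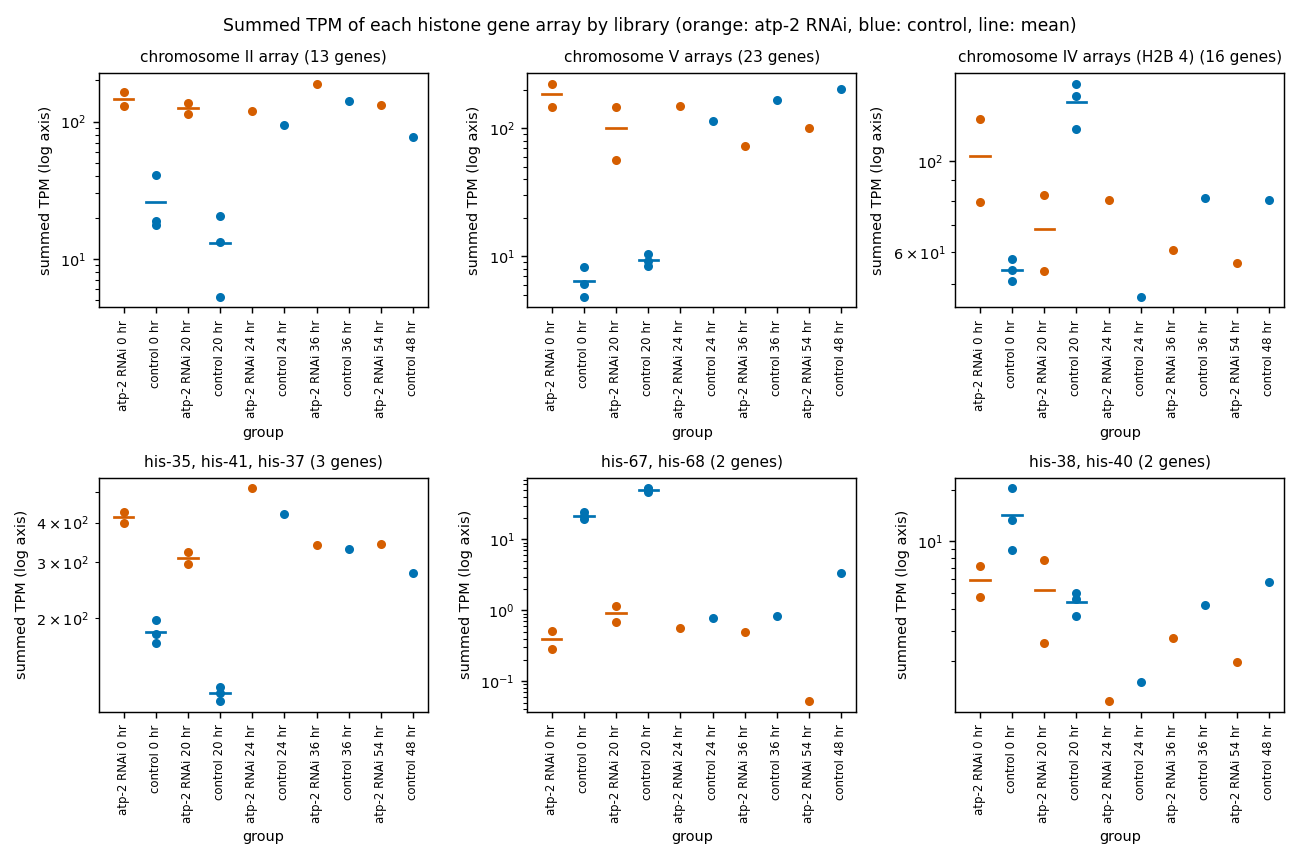
Summed TPM (log axis) of 6 sets of histone genes in each library, by group (orange, atp-2 RNAi; blue, control), with a line at the mean where a group has more than 1 library. The chromosome IV arrays are higher in atp-2 RNAi worms at 0 hr (mean 103 TPM against 54.3 TPM in controls) and lower at 20 hr (mean 68.3 TPM against 139.7 TPM in controls), whereas the chromosome II and V arrays are higher at both times.

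The intron-containing genes his-35, his-41 and his-37 had the highest mean TPM of their classes, and all 3 rose at both times under every scaling. Their sum was 432 and 400 TPM in atp-2 RNAi worms at 0 hr, against 168, 178 and 198 TPM in controls, and 322 and 296 TPM in atp-2 RNAi worms at 20 hr, against 122, 117 and 110 TPM in controls. The H4 gene his-37 (V:9547083-9547607, plus strand) moved the most. It had 199 and 178 TPM in atp-2 RNAi worms at 0 hr, against 46.5, 55.6 and 67 TPM in controls (log2 change 1.74, SE 0.17, adjusted p = 4.41e-05). In the 20 hr libraries it had 158 and 141 TPM in atp-2 RNAi worms, against 36.7, 34.9 and 31.6 TPM in controls (log2 change 2.09, SE 0.14, adjusted p = 4.42e-06). Both atp-2 RNAi libraries were far above every control at each time. The H2B gene his-41 (V:9545494-9546264, plus strand) averaged 100.9 ± 2.40 TPM in atp-2 RNAi worms at 0 hr (SD, n = 2) and 54.8 ± 7.39 TPM in controls (SD, n = 3), a log2 change of 0.88 (SE 0.14), and its log2 change at 20 hr was 1.16 (SE 0.13). The H2A gene his-35 (V:9544611-9545398, minus strand) averaged 126 ± 4.61 TPM in atp-2 RNAi worms at 0 hr and 70.1 ± 2.01 TPM in controls, a log2 change of 0.84 (SE 0.11), and its log2 change at 20 hr was 0.82 (SE 0.12). None of the 3 differed between the times in the limma test, but after quantile normalization his-35 did (difference 0.45, adjusted p = 0.0187). As deposited, 1 of these genes made up 38.6 to 72.6% of the summed H2A TPM (his-35), 31.9 to 67.2% of H2B (his-41) and 38.7 to 77.9% of H4 (his-37), shares that would be affected by any selection of poly(A) RNA.

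The gene of the linker histone H1, his-24 (X:14490094-14491115, plus strand), rose at both times. Its level was 194 and 82.6 TPM in atp-2 RNAi worms at 0 hr, against 18.7, 31.9 and 49.2 TPM in controls (log2 change 1.999, SE 0.44, adjusted p = 0.00350). At 20 hr it was 116 and 105 TPM in atp-2 RNAi worms, against 15.4, 22.8 and 20.4 TPM in controls (log2 change 2.46, SE 0.19, adjusted p = 8.72e-06). The groups did not overlap, but the spread at 0 hr was wide. The highest levels were at 24 hr, with 476 TPM in atp-2 RNAi worms and 446 TPM in controls. In the last libraries, whose times differ, his-24 had 83.7 TPM in atp-2 RNAi worms at 54 hr, against 210.9 TPM in controls at 48 hr.

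Among the 5 H3.3 genes, his-71 rose and his-74 fell, and his-72, the highest in mean TPM, did not pass the test at 0 hr and fell at 20 hr. The gene his-71 (X:7981382-7982070, minus strand) had 201 and 151 TPM in atp-2 RNAi worms at 0 hr, against 34.6, 43.4 and 51.3 TPM in controls (log2 change 2.01, SE 0.20, adjusted p = 4.74e-05). Its 20 hr levels were 190 and 169 TPM in atp-2 RNAi worms, against 11.8, 13.3 and 14.9 TPM in controls (log2 change 3.66, SE 0.15, adjusted p = 9.62e-07). This was the largest rise of the tested his- genes at 20 hr, and it exceeded that at 0 hr (difference 1.65, SE 0.26, adjusted p = 0.00122).

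The gene his-74 (V:12659704-12660330, minus strand) had 7.98 and 8.80 TPM in atp-2 RNAi worms at 0 hr, against 267, 220 and 185 TPM in controls (log2 change -4.57, SE 0.17, adjusted p = 6.55e-07). At 20 hr it had 16.7 and 22.1 TPM in atp-2 RNAi worms, against 411, 381 and 350 TPM in controls (log2 change -4.23, SE 0.16, adjusted p = 6.38e-07). No other his- gene tested fell as far at 0 hr in log2(TPM + 1). In plain TPM the lower genes his-67 and his-68 fell by a larger factor. The gene his-72 (III:12367474-12369050, minus strand) averaged 259 ± 44.4 TPM in atp-2 RNAi worms at 0 hr (SD, n = 2) and 259 ± 32.7 TPM in controls (SD, n = 3), and the log2 change was -0.0027 (SE 0.16, adjusted p = 0.989). It fell at 20 hr, with 226 and 228 TPM in atp-2 RNAi worms, against 351, 344 and 318 TPM in controls (log2 change -0.57, SE 0.11, adjusted p = 0.00190). Its difference of -0.57 (adjusted p = 0.0401) was lost without any 1 library other than control replicate 1 or atp-2 RNAi replicate 3 at 0 hr.

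The makeup of the summed H3.3 TPM therefore differed. The gene his-74 gave 1.60 and 2.27% of the sum in atp-2 RNAi worms at 0 hr, against 45.2, 41.3 and 40.01% in controls, and 3.86 and 5.26% in atp-2 RNAi worms at 20 hr, against 53.1, 51.6 and 51.3% in controls. The share of his-71 was 40.2 and 39.0% in atp-2 RNAi worms at 0 hr, against 5.86, 8.17 and 11.1% in controls, and 43.9 and 40.3% in atp-2 RNAi worms at 20 hr, against 1.53, 1.80 and 2.18% in controls. In the controls at 24 hr, 36 hr and 48 hr, whose germline markers were low, his-74 gave 0.862, 4.52 and 7.95% and his-71 gave 38.3, 41.6 and 38.1%. The last H3.3 genes were near the bottom of the range. The gene his-70 (III:4059647-4060172, minus strand) had 0.0958 and 0.0502 TPM in atp-2 RNAi worms at 0 hr, against 1.13, 1.93 and 2.52 TPM in controls (log2 change -1.38, SE 0.25, adjusted p = 0.00116), and was listed at 0 in all 3 controls at 20 hr. At 0 hr it reached the filter only through its level in controls, so its call is a description and no separate support. Beside it, his-69 reached at most 0.455 TPM, in the control at 36 hr, and was not tested. The sperm markers moved with his-70 in the controls, with sums of 424 to 1009 TPM at 0 hr, 7.78 to 10.4 TPM at 20 hr and 478 TPM at 48 hr, where his-70 had 6.20 TPM, and their part in its levels was not tested.

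**Figure D3:**
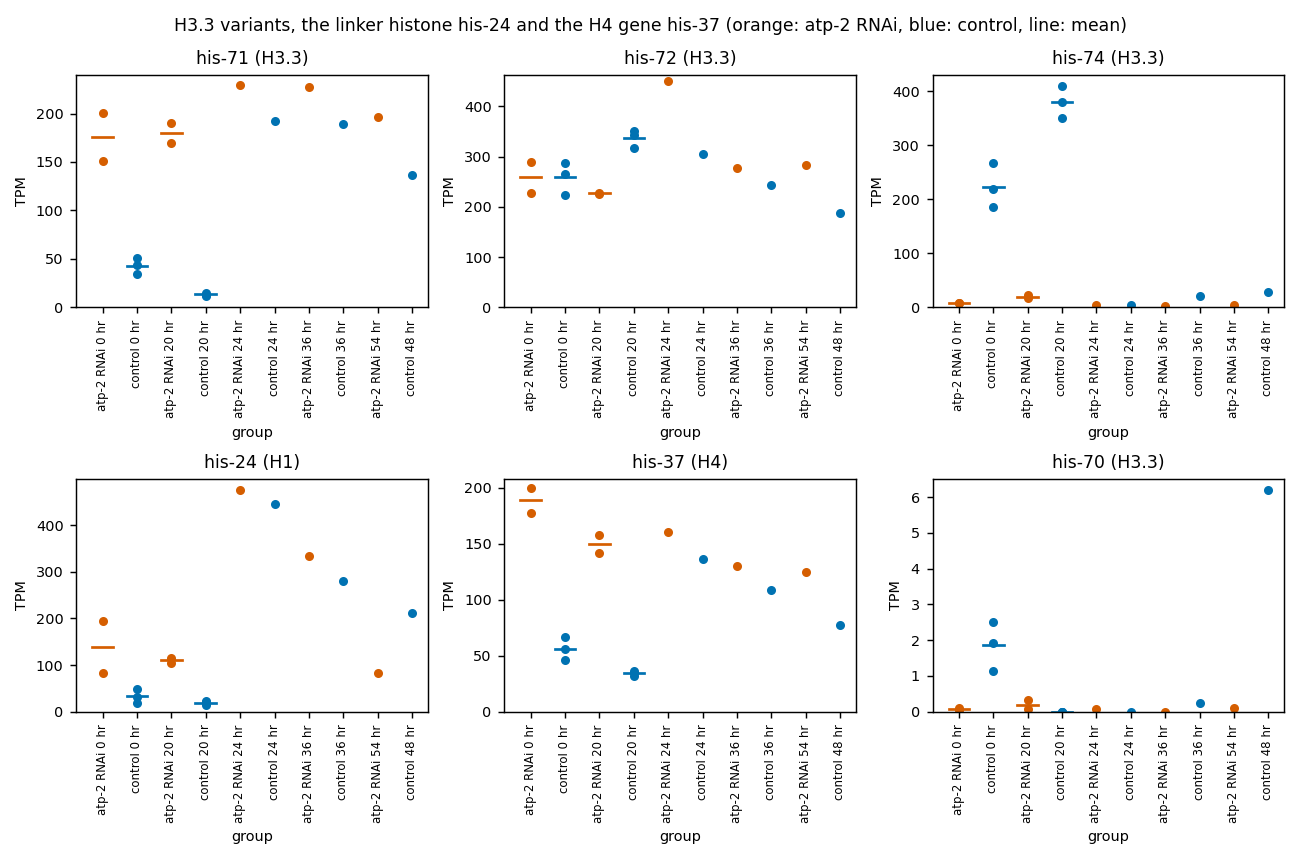
TPM of 4 genes with introns (his-71, his-72, his-74, his-24), of the H4 gene his-37 and of his-70 in each library, by group (orange, atp-2 RNAi; blue, control; line, mean of a group with more than 1 library; vertical axes differ). In the 0 hr and 20 hr groups his-71 is high in atp-2 RNAi worms and low in controls and his-74 is the reverse, while the controls at 24 hr, 36 hr and 48 hr have 136.9 to 191.8 TPM of his-71 and at most 28.5 TPM of his-74.

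A few core histone genes outside the arrays went the other way. On chromosome I, the H2A gene his-68 (I:9989061-9989617, plus strand) and the H4 gene his-67 (I:9988341-9988826, minus strand) fell at both times under every scaling. Both had atp-2 RNAi means under 1 TPM and so reached the filter only through their level in controls. Their calls are therefore a description and no separate support. The H2A gene his-68 had 0.516 and 0.209 TPM in atp-2 RNAi worms at 0 hr, against 21.8, 18.9 and 16.1 TPM in controls (log2 change -3.87, SE 0.21, adjusted p = 3.06e-06). In the 20 hr libraries it had 0.689 and 1.05 TPM in atp-2 RNAi worms, against 44.7, 43.8 and 39.1 TPM in controls (log2 change -4.54, SE 0.17, adjusted p = 7.45e-07). That was the largest fall of the tested his- genes at that time in log2(TPM + 1). Its neighbour his-67 had 0 and 0.0723 TPM in atp-2 RNAi worms at 0 hr, against 2.34, 2.55 and 3.14 TPM in controls, and 0 and 0.0844 TPM in atp-2 RNAi worms at 20 hr, against 8.26, 8.10 and 7.66 TPM in controls. The protein entries of both genes are shared with array genes that rose and with chromosome IV array genes that fell at 20 hr. In the later controls his-68 was at 0.642, 0.841 and 3.06 TPM at 24 hr, 36 hr and 48 hr.

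On the X chromosome, the H4 gene his-38 (X:7309413-7309908, minus strand) had 2.34 and 0.998 TPM in atp-2 RNAi worms at 0 hr, against 5.20, 8.53 and 12.1 TPM in controls (log2 change -1.83, SE 0.35, adjusted p = 0.00168). At 20 hr its groups overlapped (log2 change -0.25, SE 0.34), and the difference was 1.58 (SE 0.55, adjusted p = 0.0420). That difference was lost without control replicate 2 or 3 or atp-2 RNAi replicate 3 at 0 hr, without any 20 hr control, without atp-2 RNAi replicate 3 at 20 hr and after quantile normalization. Its H3 neighbour his-40 (log2 change -0.27, SE 0.30, at 0 hr and 0.28, SE 0.31, at 20 hr) did not pass the test at either time, and after quantile normalization it was called lower at both. The single gene his-73 on chromosome II rose narrowly at both times (0.63, SE 0.25, and 0.65, SE 0.24), and its 20 hr change was -0.48 after quantile normalization. Its call was also lost at 0 hr without any library other than control replicate 1, and at 20 hr without control replicate 2, control replicate 3 or atp-2 RNAi replicate 3. In the low array of his-29 to his-34 only the H3 gene his-32 reached the filter. It rose at 0 hr (log2 change 0.93, SE 0.23), with 3.54 and 2.22 TPM in atp-2 RNAi worms against 1.23, 0.789 and 1.03 TPM in controls. At 20 hr his-32 had a log2 change of 0.05 (SE 0.19), which was -1.05 after quantile normalization.

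**Figure D4:**
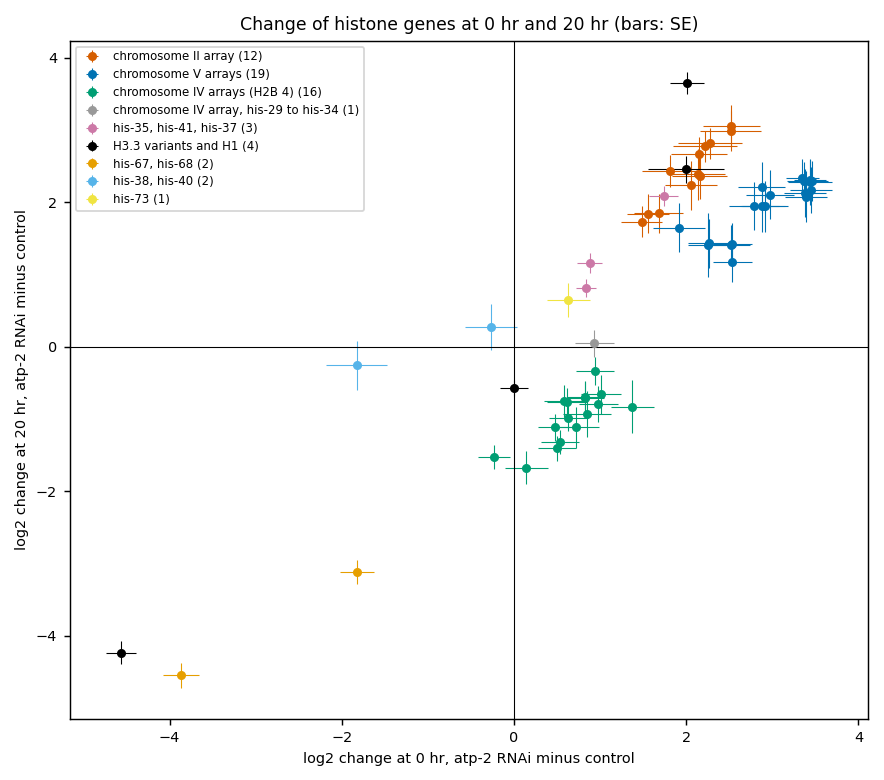
Log2 change at 0 hr (horizontal) and at 20 hr (vertical), atp-2 RNAi minus control, with SE, of each histone gene tested at both times, coloured by array. The chromosome II and V arrays lie in the upper right, the chromosome IV arrays mostly right of 0 and all below it, and his-74, his-68 and his-67 in the lower left.

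Summed by class, the H2B, H3, H4 and H1 TPM were higher on average in atp-2 RNAi worms at both times and the H3.3 TPM were lower, while the H2A sum at 20 hr depended on the scaling. At 0 hr the H3 sum was 109 ± 35.2 TPM in atp-2 RNAi worms (SD, n = 2) and 22 ± 6.498 TPM in controls (SD, n = 3), a ratio of 4.95. The ratios at 0 hr were 2.21 for H2A, 2.83 for H2B, 3.04 for H4, 4.15 for H1 and 0.841 for H3.3. At 20 hr they were 1.24 for H2A, 1.92 for H2B, 2.60 for H3, 2.34 for H4, 5.66 for H1 and 0.583 for H3.3. The H3.3 sums overlapped at 0 hr, with 499 and 388 TPM in atp-2 RNAi worms, against 590, 531 and 462 TPM in controls. The lower H3.3 sums rest on his-74: the other H3.3 genes together were higher on average in atp-2 RNAi worms at both times. The H2A ratio at 20 hr was below 1 after scaling to a common median (log2 ratio -0.02) or without its most abundant gene his-35 (-0.17), and the H4 log2 ratio at 20 hr was 0.04 without his-37. Over all 72 genes the sum was 1652 and 1239 TPM in atp-2 RNAi worms at 0 hr, against 893, 857 and 852 TPM in controls. At 20 hr it was 1103 and 1202 TPM in atp-2 RNAi worms, against 1156, 1105 and 1003 TPM in controls, where the groups overlapped.

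At 24 hr, 36 hr and 54 hr there was 1 library a group, so no test could be made. At 24 hr none of 59 histone genes counted differed more than 2-fold in TPM + 1 between atp-2 RNAi and control worms, where 6.41% of genes were higher and 4.10% lower. At 36 hr none of 60 was higher and 10 were lower, against 7.57% and 5.56% of genes, and 9 of the 10 were in the chromosome V arrays. The summed level of those arrays was 72.1 TPM in atp-2 RNAi worms at 36 hr and 167 TPM in controls, whereas the chromosome II array summed to 188 TPM in atp-2 RNAi worms and 141 TPM in controls. The largest were his-74, with 3.495 TPM in atp-2 RNAi worms against 20.5 TPM in controls, and his-19, with 4.33 TPM in atp-2 RNAi worms against 13.49 TPM in controls. Between atp-2 RNAi worms at 54 hr and controls at 48 hr, where the times differ, none of 61 was higher and 15 were lower, against 17.8% and 14.9% of genes, and 8 of the 15 were in the chromosome V arrays. There his-70 had 0.117 TPM in atp-2 RNAi worms against 6.20 TPM in controls, and his-74 had 4.94 TPM in atp-2 RNAi worms against 28.5 TPM in controls. In controls alone, the chromosome V arrays summed to 115, 167 and 202 TPM at 24 hr, 36 hr and 48 hr and the chromosome II array to 94.6, 141 and 77 TPM. In atp-2 RNAi worms the chromosome V sums were 222 and 147 TPM at 0 hr and 56.2 and 146 TPM at 20 hr. The chromosome II sums there were 163 and 130 TPM at 0 hr and 114 and 136 TPM at 20 hr. These levels come from tables made separately for each time.

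Genes that work with histones moved the other way from most of the arrays. Of all tested genes, 43.7% rose and 39.6% fell at 0 hr and 47.7% and 40.7% at 20 hr, and 21.9% were lower by the test of the difference. In a list of 34 DNA replication genes, all 34 fell at 0 hr (median log2 change -1.98) and all 34 at 20 hr (median -3.27), and 32 fell further at 20 hr than at 0 hr. The largest falls of this list at 0 hr were of mcm-7, a subunit of the replicative helicase (log2 change -3.54, SE 0.18), and of orc-1 (-3.18, SE 0.20) and orc-5 (-3.17, SE 0.17) of the origin recognition complex. Of 16 genes for histone mRNA processing and histone chaperones, 15 fell at each time and none rose. Among them asfl-1, a chaperone of H3 and H4, had 1.10 and 1.02 TPM in atp-2 RNAi worms at 0 hr, against 77.6, 70.7 and 60.7 TPM in controls (log2 change -5.09, SE 0.17). The FACT subunit hmg-3 (-4.53, SE 0.19) and the Argonaute gene csr-1 (-2.81, SE 0.19), needed for histone mRNA maturation, followed. The gene of the stem-loop binding protein that histone mRNAs need, cdl-1, had 56.1 and 39.6 TPM in atp-2 RNAi worms at 0 hr, against 259, 231 and 193 TPM in controls (log2 change -2.24, SE 0.19). At 20 hr cdl-1 had 26.3 and 41.6 TPM in atp-2 RNAi worms, against 381, 368 and 364 TPM in controls. The germline marker sums given above moved in the same direction as both lists at each time. By the test of the difference, 10 of the 16 histone mRNA and chaperone genes fell further at 20 hr. Of the 16 germline markers, 1 was higher and none was lower by that test. The part of the germline in these falls was not tested.

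Of 11 histone genes without a his- name, 10 were tested, and 4 rose and 6 fell at 0 hr while 3 rose and 7 fell at 20 hr. Of all tested genes, 43.7% rose and 39.6% fell at 0 hr, and 47.7% rose and 40.7% fell at 20 hr. The H2A.Z gene htz-1 fell (log2 change -1.85, SE 0.15, at 0 hr and -2.85, SE 0.15, at 20 hr). So did both genes of the centromeric H3 variant, hcp-3 (-3.29, SE 0.22, and -4.05, SE 0.16) and cpar-1 (-4.74, SE 0.17, and -5.52, SE 0.17). The linker histone genes divided. The genes hil-1 (3.04, SE 0.30, and 3.09, SE 0.29), hil-3 (3.65, SE 0.34, and 2.88, SE 0.16) and hil-7 (1.48, SE 0.26, and 0.67, SE 0.17) rose at both times. Of these, hil-7 had control means of 0.161 and 0.641 TPM and reached the filter only through atp-2 RNAi worms (2.38 and 1.61 TPM). The genes hil-4 (-5.11, SE 0.13, and -4.59, SE 0.27), hil-5 (-4.69, SE 0.17, and -4.41, SE 0.19) and hil-8 (-1.51, SE 0.19, and -2.10, SE 0.27) fell at both. The gene hil-2 rose narrowly at 0 hr (0.39, SE 0.16) and fell at 20 hr (-0.59, SE 0.23), and hil-6 did not reach the filter.

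**Figure D5:**
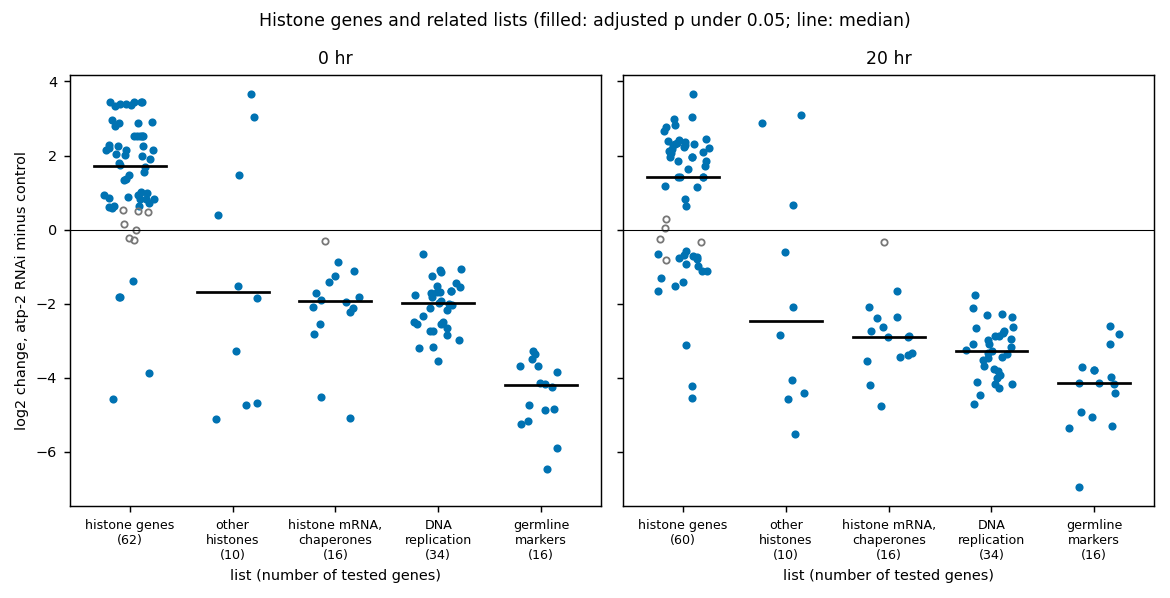
Log2 change, atp-2 RNAi minus control, of the tested genes of 5 lists at 0 hr (left) and 20 hr (right), with filled points past an adjusted p of 0.05 and a line at the median. The histone genes lie mostly above 0 (medians 1.71 and 1.43), while the DNA replication genes (medians -1.98 and -3.27) and the germline markers (-4.20 and -4.14) lie below it. Of the histone genes, 20 at 0 hr and 25 at 20 hr passed the filter with a control mean under 1 TPM, and their medians depend partly on this.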

How the data were processed

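RNA of whole worms was extracted with GENEzol and made into strand-specific SureSelect libraries, per the labels' protocols. The submitters' processing notes name bcl2fastq 2.20, TopHat, Cufflinks and the build WBcel235. Other versions, the treatment of reads that match several genes and any poly(A) selection are not stated there or in the labels. In the tables the authors deposited TPM per library, per the file headers, with 0.0001 for no signal, which was set to 0. TPM keep no totals, so depth is unknown and no counting interval is given. The tables were made separately for each time.

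Histone genes were the rows named his- and a number and typed as protein coding. Class and UniProt entry come from the deposited tables, and exons from the reference annotation. For 0 hr and for 20 hr, log2(TPM + 1) of 2 atp-2 RNAi and 3 control libraries went into limma 3.58.1 (R 4.3.3), using eBayes with an intensity trend. The p-values were adjusted by Benjamini-Hochberg over all genes whose mean reached 1 TPM, with a threshold of 0.05. A log2 change on this scale understates that of low genes. The difference of the changes was an interaction in 1 fit of 10 libraries. The fits were tested on simulated data with the same spread for all genes and changes placed only in genes above a control level. That trial does not cover genes of low control level or wide spread, such as those of the chromosome V arrays. Unreplicated pairs were counted past 2-fold in TPM + 1, with no test, where the mean of both libraries was at least 1 TPM. Sums were not tested. Python 3.11.15, numpy 2.4.6, pandas 2.3.3 and matplotlib 3.10.9 were used.

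Alternatives were a pseudocount of 0.1, no filter or a mean of 5 TPM, a common median, quantile normalization, no intensity trend, a replicate block, all 10 libraries in 1 fit and leaving out each library. The members, lists and tests were chosen with earlier results of these data known. Genes named were all variants and H1, the 3 most abundant of each core class, the 3 largest changes per direction at 0 hr, 20 hr and for their difference, the 2 largest per direction in each unreplicated pair, the other histone genes, the 3 largest changes at 0 hr in the chaperone and replication lists, and members that an alternative turned round. The genes cdl-1, his-42, his-63, his-64 and the copies his-10, his-28, his-30, his-33, his-50, his-58 and his-66 were named outside this rule, after their values were seen. Sequences were not used here.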

Additional observations from a re-analysis of the deposited data

Results flagged for a closer look

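In 12 of the his- genes that the naming rule chose, the change with atp-2 RNAi at 20 hr differed from that at 0 hr in the limma test of the difference itself (log2 scale, 20 hr minus 0 hr). In the chromosome IV arrays the differences were -2.20 for his-59, -1.90 for his-56, -1.84 for its copy his-46, -1.84 for his-60 and -1.28 for his-48, and the calls of these 5 genes turned from a rise or no call at 0 hr to a fall or no call at 20 hr. In the chromosome V arrays his-19 had -1.28 and his-22 had -1.17, a smaller rise at 20 hr. The H4 gene his-67 on chromosome I had -1.29, a larger fall at 20 hr, and his-32 had -0.88. Among the H3.3 genes, his-72 had -0.57 and his-71 had 1.65, a larger rise at 20 hr. The H4 gene his-38 had 1.58, having fallen at 0 hr only by the test within that time. Other his- genes with a called difference are counted in the text but not listed here. The 0 hr and 20 hr levels come from separate tables, so the comparison is of changes within each table. The sums of DNA replication genes were 837 to 1087 TPM in atp-2 RNAi worms and 3195 to 4361 TPM in controls at 0 hr, and 535 to 786 TPM in atp-2 RNAi worms and 6206 to 6608 TPM in controls at 20 hr. Their part in these differences was not tested.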

How the results depend on the processing

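Counts are given as histone genes higher and lower. At 0 hr (50 and 5), a filter of 5 TPM, which tests fewer genes, gave 26 and 3, and leaving out a library gave 40 to 53 and 4 to 5. At 20 hr (37 and 18), that filter gave 10 and 12 and leaving out a library gave 26 to 37 and 11 to 21, the fewest lower without atp-2 RNAi replicate 2. For the difference (2 and 29), the filter of 5 TPM gave 1 and 11, a pseudocount of 0.1 gave 1 higher, no filter gave 19 lower, and leaving out a library gave 1 to 2 and 15 to 36, the fewest lower without atp-2 RNAi replicate 2 at 0 hr (15) or at 20 hr (16). The cause was not tested. With the replicate number as a block the counts were 51 and 5 at 0 hr, 37 and 16 at 20 hr, and 2 and 18 for the difference. The numbers do not pair the samples, since only 2 are shared and same-numbered libraries did not deviate together (r = -0.0256 over 14094 genes at 0 hr and -0.0337 over 12916 at 20 hr). Quantile normalization turned round the called rise of his-73 at 20 hr (-0.48). It also turned the sign of his-32 (-1.05) and his-40 (-0.86) at 20 hr and of his-35 (0.45) for the difference. These 3 had no call before that scaling. Class sums as log2 ratios at 20 hr after scaling to a common median were 2.18 for H1, -0.0194 for H2A, 0.61 for H2B, -1.10 for H3.3 and 0.91 for H4. Without the most abundant gene they were 1.56 for H2A and 2.21 for H2B at 0 hr, and -0.17 for H2A, -0.98 for H3.3 and 0.042 for H4 at 20 hr. The H3.3 value leaves out his-72 and keeps his-74. In the unreplicated pairs, a pseudocount of 0.1 gave 6 higher at 24 hr, 1 higher and 20 lower at 36 hr, and 4 higher at 54 hr against 48 hr. A threshold of 4-fold gave 1 lower at 36 hr and 2 lower at 54 hr, and a common median gave 20 lower at 36 hr. A common median moved the median change of all tested genes from 0.13 to -0.02 at 0 hr and from 0.31 to 0.19 at 20 hr. Depth is unknown, so it sets no stated limit.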
